A study of Mus musculus with 16 samples.

Results

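The secreted Wnt antagonists examined here were the products of 10 genes, *Dkk1*, *Dkk2*, *Dkk3*, *Dkk4*, *Sfrp1*, *Sfrp2*, *Sfrp4*, *Sfrp5*, *Wif1* and *Frzb*, out of 25755 mouse genes with a curated RefSeq transcript. They were taken by family, and every one had a gene model in GRCm38. For each gene, peaks of the histone marks H3K4me3 and H3K27me3 and of Suz12, a subunit of the Polycomb complex PRC2, were collected within 2500 bp on either side of its start sites and over its body. The peaks came from ChIP-sequencing, which sequences the DNA that an antibody pulls down and calls peaks where reads exceed the background. The cells were MycER mouse embryonic stem cells (ESCs), a line of R1 ESCs with a Myc protein fused to the estrogen receptor, which becomes active when 4-hydroxytamoxifen (OHT) is added. LIF-ESCs were grown in 100 units per ml LIF without OHT, and Myc-ESCs in 50 nM OHT without LIF, so the cultures differed in both agents and the effect of each cannot be told apart. All cells carried MycER and, by the study's methods, ESC medium contained serum and vitamin C on gelatin, with no feeder cells. The study gives the name MycER to ESCs with a mutated form of Myc, MycT58AER. It made another MycER clone to check that results did not depend on the clone. The sources used here do not state the clone for each ChIP-sequencing library. The comparison addresses how Polycomb and H3K4me3 at these genes differ when Myc activity takes the place of LIF.

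Wnt proteins bind Frizzled receptors together with the co-receptors Lrp5 and Lrp6, which protects β-catenin from degradation and supports the self-renewal of mouse ESCs. Secreted antagonists act outside the cell. Dkk proteins occupy the Lrp co-receptors, whereas Sfrp proteins, Frzb (also called sFRP3) and Wif1 bind the Wnt proteins themselves. In ESCs, many developmental genes are bivalent, which means that H3K4me3, a mark of active or poised promoters, lies together with H3K27me3, the mark that PRC2 deposits.

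The 16 libraries comprised 2 for each culture and antibody and 4 inputs, but the deposited data were 6 peak lists, 1 per culture and antibody. The lists held 32469 (LIF) and 30345 (Myc) H3K4me3 peaks, 3120 and 16717 H3K27me3 peaks, and 11305 and 13907 Suz12 peaks. Each peak has a position and a score from the peak caller, which grows with both enrichment and depth. It was read as a rank within its own list, and in 1 alternative as a limit of 100 for every list, so that differences between the cultures at this limit also depend on depth. No read counts are given, so the depth is unknown, no value could be set against the spread between libraries, and no test was possible. In these bulk samples, a mark in fewer cells and less of a mark per cell cannot be told apart. All 8 ESC marker genes examined (among them *Pou5f1*, *Sox2* and *Nanog*) carried a start-site H3K4me3 peak in both cultures, and H3K27me3 lay at 0 of them in LIF-ESCs and at 1, *Esrrb*, in Myc-ESCs. Markers of primitive endoderm, fibroblasts and neural cells had H3K4me3 at 7 of 8 start sites in LIF-ESCs and 8 of 8 in Myc-ESCs, so H3K4me3 alone did not tell ESCs from these cells. H3K27me3 lay at 3 of these 8 (*Gata4*, *Pax6*, *Sox1*) in LIF-ESCs and at 5 (also *Gata6* and *Sox7*) in Myc-ESCs.

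Most of the antagonist genes carried H3K4me3 in both cultures, and fewer carried Suz12 or H3K27me3. H3K4me3 lay at 8 of 10 start sites in LIF-ESCs and 9 of 10 in Myc-ESCs, against 62.7 and 63.9% of all genes. The additional gene was *Dkk3*, and none had the mark in LIF-ESCs only, while of all genes 2.36% had it solely in Myc-ESCs and 1.2% solely in LIF-ESCs. Over the gene bodies the counts were again 8 and 9, with 65.4 and 66.5% of all genes.

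H3K27me3 lay at 2 start sites in LIF-ESCs, those of *Dkk1* and *Sfrp2*, and at 5 in Myc-ESCs, where *Sfrp1*, *Sfrp5* and *Frzb* were added. Of all genes, 3.84% had H3K27me3 in the LIF-ESC list and 10.8% in the Myc-ESC list. The 3 antagonist genes marked in Myc-ESCs only stood against 7.69% of all genes, and 0 with the mark in LIF-ESCs only against 0.738%. Over the bodies, H3K27me3 was found in 3 genes in LIF-ESCs (*Dkk1*, *Sfrp2*, *Frzb*) and in 6 in Myc-ESCs (*Dkk1*, *Dkk2*, *Sfrp1*, *Sfrp2*, *Wif1*, *Frzb*), with 4.07 and 11.2% of all genes. These counts changed when the unequal lengths of the H3K27me3 lists were removed. With the Myc-ESC list limited to its 3120 highest-scoring peaks, the mark remained at 2 start sites in Myc-ESCs, *Dkk1* and *Frzb*. Of these, *Frzb* alone had it in Myc-ESCs only, and *Sfrp2* had it in LIF-ESCs only. The shares of all genes under this limit are not given here, so these counts cannot be set against a background.

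Suz12 lay at the same 6 start sites in both cultures (*Dkk1*, *Dkk2*, *Sfrp1*, *Sfrp5*, *Wif1*, *Frzb*), against 12.2% (LIF) and 14.7% (Myc) of all genes. None of the 10 had Suz12 in a single culture, compared with 3.83% of all genes for Myc-ESCs alone and 1.29% for LIF-ESCs alone. The same 6 genes had Suz12 over the body in each culture, with 12.5 and 15.3% of all genes. *Dkk3*, *Dkk4*, *Sfrp2* and *Sfrp4* had no Suz12 peak in the window or body in either list. When only peaks scoring at least 100 were used, the LIF-ESC Suz12 peak of *Sfrp1* was lost and that gene had Suz12 in Myc-ESCs only. *Wif1* then had no Suz12 in either culture. Its LIF-ESC and Myc-ESC Suz12 peaks also did not overlap each other, so 5 genes shared Suz12 when peaks of the cultures had to overlap.

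The map of peaks shows where each of these calls lies. Positions are given in bp along the strand of the gene with the start site at 0, so that negative positions are upstream.

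*Dkk1* encodes the best studied Lrp5/6 ligand of the Dkk family and is itself a target of Wnt signalling. The gene (GRCm38 chr19:30545876-30549496, minus strand, 4 exons) had all 3 signals in both cultures. H3K4me3 covered 2561 bp (LIF-ESCs) and 2930 bp (Myc-ESCs) of the window of 5001 bp. Suz12 covered 745 bp in 3 peaks in LIF-ESCs and 2573 bp in 5 peaks in Myc-ESCs. Suz12 thus reached over 14.9% of the window in one culture and 51.4% in the other. A difference of 1828 bp or more was uncommon, since only 5.81% of the 2806 genes with Suz12 in both cultures lay above it. Its best Suz12 peak scored 200.9 (rank 2820) in LIF-ESCs and 682 (rank 1967) in Myc-ESCs, in the top 24.9 and 14.1% of the lists.

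H3K27me3 at *Dkk1* covered 141 bp in LIF-ESCs, compared with 770 bp in Myc-ESCs. The LIF-ESC peak lay in intron 2 at positions 1090 to 1230, had a score of 60.5 and ranked 1894 of 3120. In Myc-ESCs, a peak of 197 bp lay 3' of it in the same intron, at positions 1336 to 1532 (score 72.9, rank 6400 of 16717). The other Myc-ESC peaks in the window were upstream, at positions -1098 to -886 (score 74.7, rank 6112) and -1659 to -1300 (score 126, rank 2121). Outside the window, a Myc-ESC peak lay downstream of the gene at positions 3771 to 3894 (rank 10728). No LIF-ESC peak overlapped a Myc-ESC one. With lists of unequal length and unknown depth, bases without a peak are not shown to lack the mark. The sequences of 3 of these peaks are shown because they mark which stretch was called in which culture. They are written 5' to 3' on the strand of the gene, with CpG dinucleotides, the sites of DNA methylation, in capitals. The LIF-ESC intron peak is chr19:30548266-30548406, the Myc-ESC intron peak chr19:30547964-30548160 and the nearer upstream peak chr19:30550382-30550594, all GRCm38 and read on the minus strand.
Dkk1 intron 2, LIF-ESC: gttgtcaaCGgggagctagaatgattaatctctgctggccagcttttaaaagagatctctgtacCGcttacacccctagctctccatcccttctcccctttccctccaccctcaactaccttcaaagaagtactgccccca
Dkk1 intron 2, Myc-ESC: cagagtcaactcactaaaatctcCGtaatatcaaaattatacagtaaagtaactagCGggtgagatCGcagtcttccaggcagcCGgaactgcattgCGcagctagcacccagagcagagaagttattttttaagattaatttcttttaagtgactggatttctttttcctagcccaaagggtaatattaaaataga
Dkk1 upstream, Myc-ESC: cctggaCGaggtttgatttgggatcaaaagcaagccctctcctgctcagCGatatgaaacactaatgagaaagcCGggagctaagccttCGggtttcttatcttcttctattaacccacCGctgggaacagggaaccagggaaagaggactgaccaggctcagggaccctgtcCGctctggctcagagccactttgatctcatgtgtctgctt

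The LIF-ESC intron peak has a GC content of 50.4% and 2 CpGs, the Myc-ESC intron peak 38.6% and 5 CpGs, and the upstream peak 52.1% and 6 CpGs. Set against the number expected from their C and G content, the observed CpGs came to a ratio of 0.27, 0.68 and 0.41, so the stretch called in Myc-ESCs in the intron was the richest in CpGs for its composition.

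*Dkk2*, whose product binds the same co-receptors and can act as a weak agonist, spans 95039 bp (chr3:132085266-132180304, plus strand). Its H3K4me3 peak covered 1716 bp (score 160.4, rank 21165) in LIF-ESCs and 3021 bp (score 347, rank 15385) in Myc-ESCs. Only 2.98% of the 15852 genes with H3K4me3 in both cultures had a larger difference. Suz12 covered 1433 bp in 4 peaks and 1885 bp in 3 peaks, and its best peak was in the top 22.7% of the LIF-ESC list and the top 13% of the Myc-ESC list. H3K27me3 was absent from the window in both lists. The single H3K27me3 peak of the gene body, in Myc-ESCs, had 121 bp in intron 1 at positions 5274 to 5394, with a score of 60.1 (rank 10425).

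*Dkk3*, the most divergent member of the family, which does not bind the Lrp co-receptors in the manner of Dkk1, had no peak of any kind in its window or body in LIF-ESCs. In Myc-ESCs an H3K4me3 peak of 1715 bp crossed the start site (positions -606 to 1108 of its main start). That peak scored 104 and ranked 24259 of 30345, so 79.9% of the list scored as high or higher. The window joined 3 start sites and measured 5787 bp (gene chr7:112116019-112159482, minus strand). Suz12 and H3K27me3 were far away. The nearest Suz12 peaks lay at 66240 bp (LIF) and 65947 bp (Myc) and the nearest H3K27me3 peaks at 67528 and 67163 bp.

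*Dkk4* (chr8:22623685-22628018, plus strand), which like *Dkk1* encodes an Lrp5/6 ligand, was the only one of the 10 without a peak in its window in any list. The nearest was a LIF-ESC H3K4me3 peak whose edge lay at position -2798, just outside the window. In Myc-ESCs the nearest H3K4me3 peak was 27761 bp away. The LIF-ESC peak counts for *Dkk4* with a window of 5000 bp, or when the end of the gene span, which includes predicted transcripts, is taken as the start.

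The Sfrp proteins carry a cysteine-rich domain like that of the Frizzled receptors, with which they bind Wnts. *Sfrp1* (chr8:23411383-23449632, plus strand, 3 exons) differed most between the cultures in Suz12. In LIF-ESCs a single Suz12 peak of 203 bp lay in exon 1 at positions 398 to 600, with a score of 75.2 (rank 6763 of 11305). In Myc-ESCs, 4 peaks covered 3539 bp, from position -1680 to 2411, and the best of them was 1934 bp long, crossed the start site and scored 1956 (rank 896 of 13907). Suz12 coverage of the window was thus 4.06% in LIF-ESCs but 70.8% in Myc-ESCs. The difference of 3336 bp was exceeded at 23 of 2806 genes (0.82%).

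H3K4me3 at *Sfrp1* went the other way. The LIF-ESC peak was the broadest of the LIF-ESC H3K4me3 peaks at these 10 genes, covered 4762 bp of the window and had the score 3100, a value shared by many peaks (13.1% of the list scored this or more). The Myc-ESC peak covered 3874 bp with a score of 1023 (rank 9155, top 30.2%). The Myc-ESC minus LIF-ESC difference of -888 bp was exceeded by 97.3% of genes with H3K4me3 in both cultures. H3K27me3 was absent from the LIF-ESC list at *Sfrp1*, where the nearest peak was 259309 bp away, and covered 382 bp in Myc-ESCs. Both Myc-ESC peaks were in intron 1, at positions 1196 to 1432 (score 75.9, rank 5866) and 1593 to 1737 (score 52.2, rank 16051). Neither was kept with a score of at least 100 or with lists of equal length.

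*Sfrp5*, a small gene of 3 exons (chr19:42197971-42202252, minus strand), showed the same order for Suz12. Suz12 covered 1139 bp in 3 peaks in LIF-ESCs (best score 175, rank 3129) and 2082 bp in 2 peaks in Myc-ESCs (best score 1415, rank 1197). The main Myc-ESC peak was 1836 bp long and ran from position -393 to 1442. H3K4me3 was nearly the same, with 2373 bp (LIF) and 2237 bp (Myc). H3K27me3 lay only in the Myc-ESC list, in 2 upstream peaks, at positions -655 to -489 (score 102, rank 3233) and -986 to -818 (score 79.6, rank 5256). The first of these overlapped Suz12 and the second lay just upstream of it. The sequence of the second, chr19:42203070-42203238 on the minus strand, is shown as a stretch with an H3K27me3 peak in the Myc-ESC list only, with CpGs in capitals.
Sfrp5 upstream, Myc-ESC: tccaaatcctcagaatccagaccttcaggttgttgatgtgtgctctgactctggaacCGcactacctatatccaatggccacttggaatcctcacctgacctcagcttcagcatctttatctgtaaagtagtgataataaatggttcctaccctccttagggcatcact

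This stretch was 45.6% GC with 1 CpG, and none of its bases are marked as repeats in the genome sequence. The other *Sfrp5* peak, which had the higher score, was 41.9% GC, and 64.1% of its bases are marked as repeats.

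*Sfrp2* (chr3:83765750-83774314, plus strand) was the only antagonist gene with H3K27me3 and no Suz12. H3K4me3 covered 3600 bp of its window in 2 peaks in LIF-ESCs (best score 241, rank 17695) and all 5001 bp in Myc-ESCs, where a single peak of 6163 bp ran from position -2868 to 3294 (score 1009, rank 9224). Only 2.55% of genes had a larger H3K4me3 difference than its 1401 bp. H3K27me3 covered 178 bp in LIF-ESCs (positions 1640 to 1817, score 54.2, rank 2863 of 3120) and 150 bp in Myc-ESCs (positions 1386 to 1535, score 53.3, rank 15266 of 16717). Both peaks were in intron 1, close to the lowest scores of their lists, and did not overlap. Of all genes marked with H3K27me3, 16.8% (LIF-ESCs) and 13.8% (Myc-ESCs) had no Suz12 in the window. The nearest Suz12 peak to *Sfrp2* was 23693 bp away in the LIF-ESC list, and 492534 bp away in the Myc-ESC list. The peaks are chr3:83767961-83768138 and chr3:83767707-83767856, plus strand, and are shown because they are the H3K27me3 calls in the window of a gene without Suz12, with CpGs in capitals.
Sfrp2 intron 1, LIF-ESC: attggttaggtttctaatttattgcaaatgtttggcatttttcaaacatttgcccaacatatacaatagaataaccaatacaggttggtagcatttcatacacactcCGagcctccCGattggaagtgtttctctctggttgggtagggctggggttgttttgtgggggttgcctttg
Sfrp2 intron 1, Myc-ESC: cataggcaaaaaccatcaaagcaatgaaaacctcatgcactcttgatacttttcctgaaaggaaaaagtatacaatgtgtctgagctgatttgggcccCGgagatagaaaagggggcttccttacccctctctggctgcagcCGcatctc

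*Sfrp4* (chr13:19623175-19632825, plus strand) carried H3K4me3 alone. The peak across its start site measured 3153 bp in LIF-ESCs (score 1206, rank 9072) and 2983 bp in Myc-ESCs (score 1012, rank 9212). A second H3K4me3 peak reached into the edge of the window, up to position -2411 (LIF) and -2461 (Myc). That peak extends over the start of the neighbouring gene *Epdr1*, which lies 3345 bp away. Together they covered 3243 and 3023 bp. No Suz12 or H3K27me3 peak was near: the closest Suz12 peaks were 466567 bp (LIF) and 466186 bp (Myc) away, and the closest H3K27me3 peaks 3687487 and 465552 bp.

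*Frzb* encodes the Wnt-binding protein sFRP3 (chr2:80411970-80447396, minus strand, 6 exons) and had the largest Suz12 and H3K27me3 signals of the group by rank. Suz12 covered 3130 bp in LIF-ESCs, with a best peak of 2709 bp that scored 2083 and ranked 322 of 11305. In Myc-ESCs it covered 3485 bp, with a best peak of 3303 bp at the score of 3100, which 3.95% of the list reached or passed. Suz12 was therefore broad in both cultures, and the difference of 355 bp was below the median of 502 bp over all genes with Suz12 in both. H3K4me3 covered 2944 bp in LIF-ESCs (score 543, rank 12756) and 3899 bp in Myc-ESCs (score 1308, rank 7894).

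H3K27me3 at *Frzb* was absent from the window in LIF-ESCs and covered 1512 bp in 5 peaks in Myc-ESCs. A LIF-ESC peak of 179 bp lay just outside, in intron 1 at positions 2691 to 2869 (score 70.8, rank 1007 of 3120), so the gene counts in LIF-ESCs over its body. The Myc-ESC peaks of intron 1 formed a run from position 1169 to 2688, of which the last peak (2509 to 2688) is itself just outside the window. The best of the run had 668 bp at positions 1354 to 2021, with a score of 296 and rank 432 of 16717. The next had 350 bp, a score of 203 and rank 816. A pair of further peaks lay upstream, at positions -2303 to -2073 (score 75.5) and -2548 to -2346 (score 82.0). Another upstream peak, at positions -4780 to -4643, was outside the window. The best pair of peaks in intron 1 had the highest H3K27me3 scores among the 10 genes, and these peaks, 1018 bp in all, were kept both with a score of at least 100 and with lists of equal length. The upstream peak chr2:80449469-80449699, read on the minus strand, is shown as the far side of the H3K27me3 that surrounds the start site, with CpGs in capitals.
Frzb upstream, Myc-ESC: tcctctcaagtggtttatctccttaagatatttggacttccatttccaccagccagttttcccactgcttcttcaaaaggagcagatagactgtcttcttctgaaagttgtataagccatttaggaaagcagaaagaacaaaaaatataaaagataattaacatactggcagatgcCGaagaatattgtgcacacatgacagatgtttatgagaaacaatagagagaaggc

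The upstream peak was 37.2% GC with 1 CpG in 231 bp.

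*Wif1* encodes a secreted protein that binds Wnts through its WIF domain (chr10:121034004-121100642, plus strand, 10 exons). It had the highest-ranking Myc-ESC H3K4me3 peak of the group, with 2990 bp in LIF-ESCs (score 2338, rank 5825) and 2901 bp in Myc-ESCs (score 2621, rank 4245). Suz12 was sparse, with 474 bp (LIF) and 295 bp (Myc), each in 2 peaks, none of which reached a score of 100. *Wif1* was the only one of the 6 Suz12 genes with less Suz12 coverage in Myc-ESCs, and 89.7% of genes with Suz12 in both cultures lay above its difference of -179 bp. No H3K27me3 peak lay in the window. A Myc-ESC peak of 144 bp in intron 2 (positions 3115 to 3258, score 54.6, rank 13699) lay outside it.

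The plot of bases covered sets the 10 genes side by side.

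**Figure D1:**
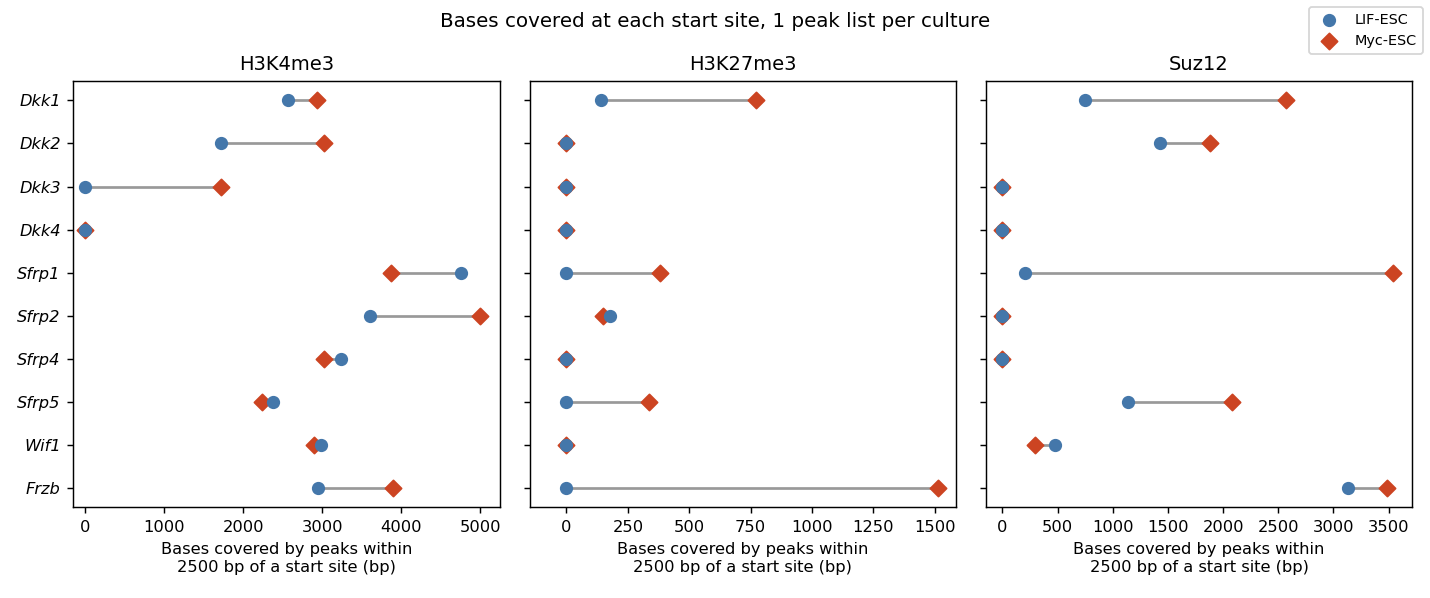
Bases covered by peaks within 2500 bp of the start sites, for H3K4me3, H3K27me3 and Suz12. Each row is a gene, the x axis is in bp with its own range in each panel, blue circles are LIF-ESCs and red diamonds Myc-ESCs, and there is 1 list per culture, so no error can be shown. *Sfrp1* has the longest line for Suz12 (203 to 3539 bp) and *Frzb* for H3K27me3 (0 to 1512 bp).

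Across the 8 genes with H3K4me3 in both cultures, the median Myc-ESC minus LIF-ESC difference was 140.0 bp, with 4 genes larger and 4 smaller in Myc-ESCs. Over the 15852 genes with the mark in both, the median was 141 bp and 64.9% were larger. The median of the antagonist genes thus lay at that of all genes, although *Sfrp2*, *Dkk2* and *Frzb* (955 bp, exceeded by 6.06% of genes) were toward one end and *Sfrp1* toward the other. For Suz12 the median difference over the 6 genes was 698 bp, with 5 larger and 1 smaller. Over all 2806 genes with Suz12 in both cultures it was 502 bp, and 81.3% were larger in Myc-ESCs. A larger Suz12 coverage in Myc-ESCs was therefore the usual case at Suz12 genes. Of the 6, *Sfrp1* and *Dkk1* stood farthest out on this distribution, while *Dkk2*, *Sfrp5* and *Frzb* had values exceeded by 53.1, 26.3 and 58.7% of genes.

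**Figure D2:**
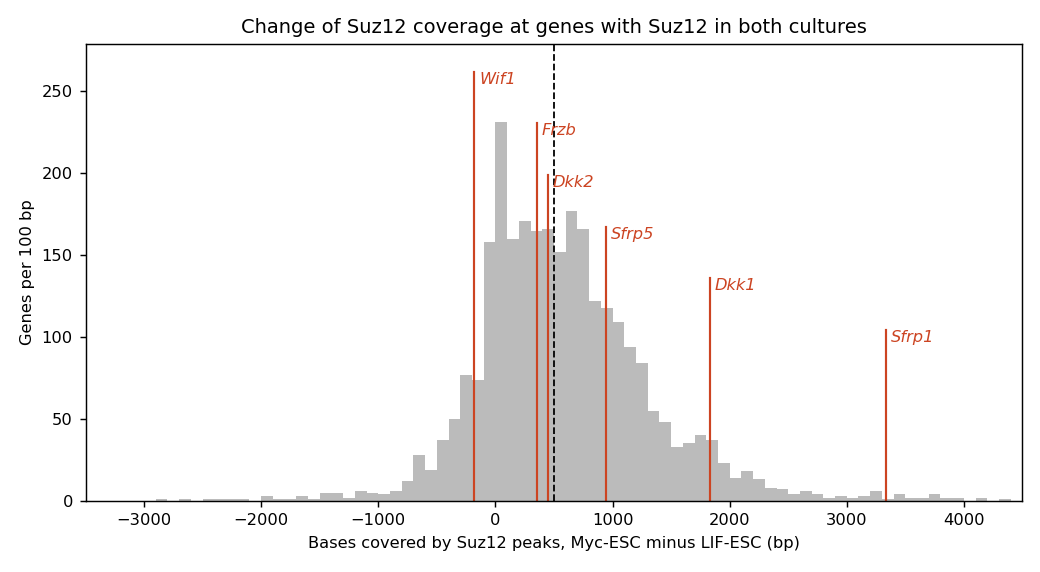
Histogram of the Myc-ESC minus LIF-ESC difference in bases covered by Suz12 peaks (x axis, bp) over the 2806 genes with Suz12 at the start site in both cultures, in bins of 100 bp (y axis, genes; 1 list per culture). The dashed line is the median of 502 bp and red lines are the 6 antagonist genes. *Wif1* lies below 0, *Frzb* and *Dkk2* lie just left of the median, and *Sfrp1* (3336 bp) lies in the far right tail.

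The place of each best Suz12 peak is given within its own list only. The lists differ in length (11305 and 13907 peaks) and the percents shift with the number of weak peaks called, so the places describe each list and do not measure a difference between the cultures. *Sfrp1* was in the top 60.4% of the LIF-ESC list and the top 6.44% of the Myc-ESC list, and *Sfrp5* was at 27.7 and 8.61%. *Wif1* was at 47.8 and 68.3%. *Frzb* ranked 322 and 28, but many peaks share its Myc-ESC score, so the percents of 2.85 (LIF) and 3.95 (Myc) give no order.

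**Figure D3:**
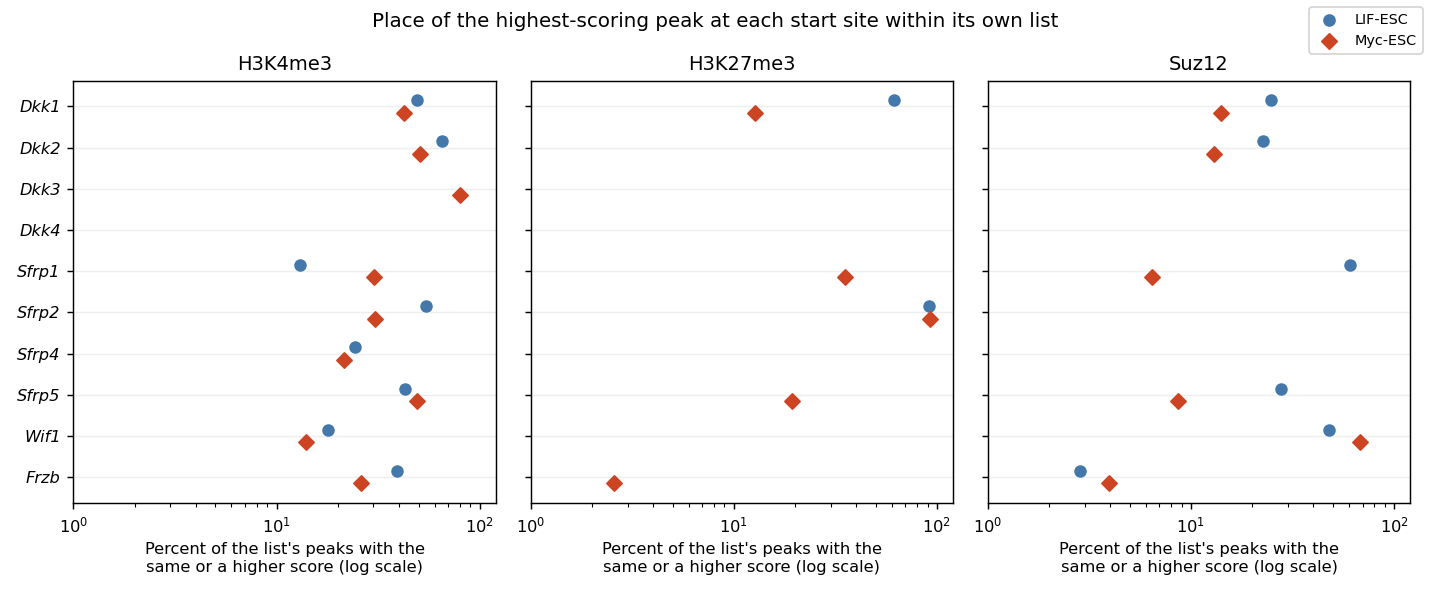
Place of the highest-scoring peak at each start site within its own list, as the percent of peaks with the same or a higher score (log scale, lower is stronger), for LIF-ESCs (blue circles) and Myc-ESCs (red diamonds). Genes without a peak have no symbol. Suz12 at *Sfrp1* is at 60.4% (LIF) and 6.44% (Myc), and H3K27me3 at *Frzb* (2.58%) is the strongest of that mark while *Sfrp2* lies at 91.8 and 92.9%.

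The called peaks of the 3 signals lay in different places around the start sites. H3K4me3 covered the start base itself at all 8 genes with the mark in LIF-ESCs and all 9 in Myc-ESCs, compared with 95.1 and 95.3% of all marked genes. Suz12 covered the start base at 3 of 6 genes in LIF-ESCs (*Dkk2*, *Sfrp5*, *Frzb*) and at 5 of 6 in Myc-ESCs, where *Dkk1* and *Sfrp1* were added, against 39.6 and 49.1% of all Suz12 genes. H3K27me3 peaks covered it at 0 of 2 and 0 of 5 genes, and this was the general pattern, since the shares over all genes with the mark were 2.63 and 3.88%. The H3K27me3 peaks were short, with a median of 157 bp (LIF) and 162 bp (Myc) over the lists. For H3K4me3 the medians were 2316 and 2623 bp. A start base outside an H3K27me3 peak is therefore not shown to lack the mark. The H3K27me3 peak bases nearest to a start site were at position -489 (*Sfrp5*) in Myc-ESCs and 1090 (*Dkk1*) in LIF-ESCs.

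H3K27me3 overlapped Suz12 at these genes about as often as elsewhere. Of the H3K27me3 peaks in the windows, 1 of 2 overlapped a Suz12 peak in LIF-ESCs and 8 of 13 (61.5%) in Myc-ESCs. Over all start sites the shares were 59.3% of 1353 and 63.1% of 6915 peaks. Those of the 13 that did not overlap Suz12 were the intron peaks of *Dkk1* and *Sfrp2*, the farther upstream peak of *Sfrp5* and both upstream peaks of *Frzb*. Several lay close to a Suz12 peak. The *Dkk1* peak began at position 1336 and Suz12 ended at 1280. At *Sfrp5* H3K27me3 ended at -818 and Suz12 began at -816, and at *Frzb* these positions were -2073 and -2006. At *Sfrp2* the nearest Suz12 peak was 492534 bp away.

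Of the 10 genes, 5 shared 1 state by the peaks in the window: H3K4me3 with Suz12 in both cultures, without LIF-ESC H3K27me3. These were *Dkk2*, *Sfrp1*, *Sfrp5*, *Wif1* and *Frzb*, and 3 of them (*Sfrp1*, *Sfrp5*, *Frzb*) had H3K27me3 in Myc-ESCs. Among all 1895 genes in this state, 1215 had it (64.1%), so 3 of 5 was near the background. The share of genes with H3K27me3 in Myc-ESCs was higher where Suz12 covered more bases in the same culture. Among Myc-ESC genes with H3K4me3 and Suz12, 31.2% of the 857 with less than 500 bp of Suz12 had H3K27me3, compared with 46.1% of the 614 with 500 to 999 bp, 67.2% of the 943 with 1000 to 1999 bp, 80.2% of the 586 with 2000 to 2999 bp and 97.2% of the 667 with 3000 bp or more. *Wif1*, without H3K27me3, fell in the lowest class, and *Dkk2*, also without it, in that of 1000 to 1999 bp. *Dkk1* and *Sfrp5*, with H3K27me3, fell in the class of 2000 to 2999 bp, and *Sfrp1* and *Frzb*, also with it, in the highest.

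**Figure D4:**
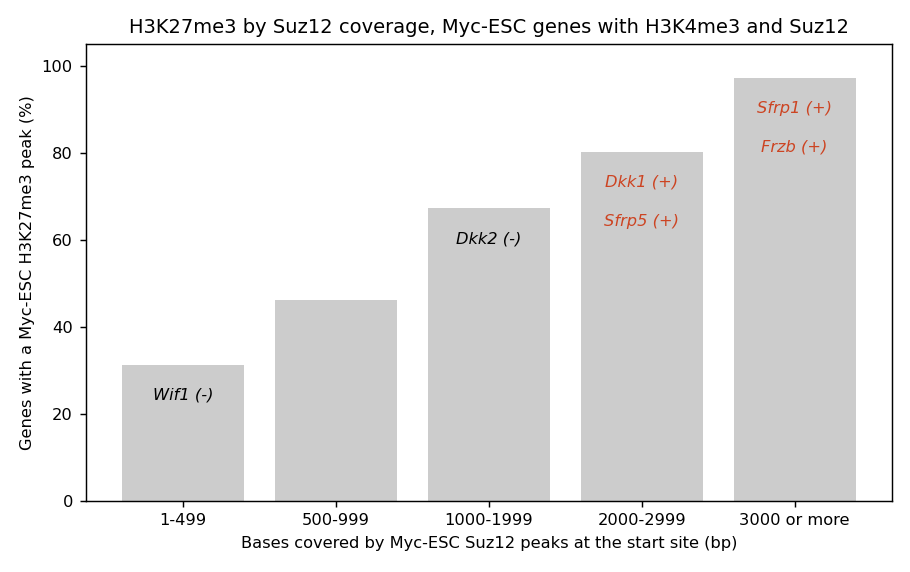
Percent of genes with a Myc-ESC H3K27me3 peak at the start site (y axis, bars) by the bases that Myc-ESC Suz12 peaks cover there (x axis, classes in bp), over genes with Myc-ESC H3K4me3 and Suz12. The bars rise from 31.2 to 97.2%. The 6 antagonist genes are written in their class, with (+) where they have Myc-ESC H3K27me3 and (-) where they do not.

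Promoter sequence was compared for the 6 genes found in the RefSeq promoter table of GRCm38.p6 (*Dkk1*, *Dkk2*, *Sfrp2*, *Sfrp5*, *Wif1* and *Frzb*), with *Dkk3*, *Dkk4*, *Sfrp1* and *Sfrp4* not in it. The table gives 250 bases before and 50 after each start. GC content over these 300 bases ran from 57.7% (*Dkk2*) to 66% (*Sfrp2*), against a median of 52.7% over 32841 promoters. The ratio of observed to expected CpGs was 0.33 at *Dkk1*, 0.50 at *Dkk2*, 0.62 at *Sfrp5*, 0.65 at *Frzb*, 0.68 at *Sfrp2* and 0.85 at *Wif1*. Its median was 0.38 over all promoters, 0.68 over promoters of genes with Suz12 in either culture and 0.70 over those with Myc-ESC H3K27me3. *Dkk1*, with much Suz12 and H3K27me3 in Myc-ESCs, thus had the lowest ratio, and *Wif1*, with little Suz12 and no H3K27me3 in the window, the highest. *Frzb*, with more Suz12 than *Dkk1*, lay between them at 0.65, and a relation between the ratio and Suz12 was not tested. The stretches before the start of *Dkk1* (chr19:30549497-30549746, minus strand) and *Wif1* (chr10:121033754-121034003, plus strand) are shown as these ends of the range and that of *Frzb* (chr2:80447397-80447646, minus strand) as the one with the broadest Suz12 of the 6, each 5' to 3' on the strand of the gene with CpGs in capitals.
Dkk1 upstream 250 bases: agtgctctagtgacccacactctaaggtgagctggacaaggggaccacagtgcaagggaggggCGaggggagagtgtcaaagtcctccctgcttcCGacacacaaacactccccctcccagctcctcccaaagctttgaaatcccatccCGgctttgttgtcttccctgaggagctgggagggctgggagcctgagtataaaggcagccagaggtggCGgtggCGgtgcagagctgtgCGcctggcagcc
Wif1 upstream 250 bases: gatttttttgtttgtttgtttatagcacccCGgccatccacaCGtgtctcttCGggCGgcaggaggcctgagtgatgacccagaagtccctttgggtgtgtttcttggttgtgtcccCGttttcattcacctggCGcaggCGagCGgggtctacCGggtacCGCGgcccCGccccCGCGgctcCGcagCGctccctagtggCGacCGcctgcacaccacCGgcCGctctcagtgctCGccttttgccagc
Frzb upstream 250 bases: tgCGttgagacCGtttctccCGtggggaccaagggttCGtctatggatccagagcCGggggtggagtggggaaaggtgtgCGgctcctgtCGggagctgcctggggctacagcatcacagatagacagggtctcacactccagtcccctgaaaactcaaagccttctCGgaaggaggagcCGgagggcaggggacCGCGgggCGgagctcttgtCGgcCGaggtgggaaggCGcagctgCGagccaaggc

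The letters CACGTG, the E-box bound by Myc and other factors and the same on both strands, occurred in the *Wif1* promoter alone and in 7.15% of all promoters. CTTTGAA, a sequence bound by Tcf/Lef factors, was found on either strand in the *Dkk1* promoter alone and in 5.13% of all promoters, and CTTTGAT in none of the 6 and in 3.73%. Such matches describe these windows only.

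H3K27me3 peaks lay in sequence of lower GC content than Suz12 peaks. In Myc-ESCs the 11 H3K27me3 peaks at genes in the promoter table had a median GC content of 40.7% (29.1 to 52.1%), and the 14 Suz12 peaks 52.2% (42.1 to 61.4%). Over all genes the medians were 45.8 and 54.5%, so the order was the same elsewhere.

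Other genes of the Wnt pathway, from lists chosen by role, are given as context. H3K27me3 lay at 2 of 16 other Wnt inhibitor genes in LIF-ESCs (*Shisa3*, *Znrf3*) and 8 in Myc-ESCs, at 7 and 16 of 19 Wnt ligand genes, and at 2 (*Fzd1*, *Fzd2*) and 6 of 15 receptor genes. Genes of R-spondins, their Lgr receptors and norrin (*Ndp*) had it at 0 and 3 of 8 (*Rspo1*, *Rspo2*, *Lgr5*). Intracellular components had it at 0 and 3 of 18 (*Tcf7l2*, *Tle1*, *Tle3*). In none of these lists was a gene marked in LIF-ESCs only, a state of just 0.738% of all genes. For all genes the shares were 3.84% (LIF) and 10.8% (Myc) for H3K27me3, and 12.2 and 14.7% for Suz12. The antagonist genes, at 2 and 5 of 10, thus stood at 20 and 50%, near the other inhibitors (12.5 and 50%) and below the ligands (36.8 and 84.2%), as a description without a test. For Suz12 the counts were 8 and 9 of 16 other inhibitors, 16 and 17 of 19 ligands, and 9 and 10 of 15 receptors. Of the 8 R-spondin, Lgr and norrin genes, 4 (*Rspo1*, *Rspo2*, *Rspo3*, *Lgr5*) and 5 (also *Lgr6*) had Suz12. Of the 18 intracellular components, 2 (*Tcf7l2*, *Lef1*) and 6 had it.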

How the data were processed

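H3K4me3, H3K27me3 and Suz12 were profiled by ChIP-sequencing. The authors aligned reads to GRCm38 with Bowtie2 (2.2.3, per the submitters' processing notes), kept unique best matches and called peaks with MACS (1.4.2). They deposited 6 lists with a position and a score per peak, a measure of the p-value on a log scale. Whether libraries were pooled is not given in the sources used here.

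From these lists, peaks overlapping a window of 2500 bp on either side of any curated RefSeq start, or the gene span, by at least 1 bp were collected with Python 3.11.15, numpy 2.4.6 and pandas 2.3.3. Sequences were read with pysam 0.24.0 and credited to RefSeq, and figures drawn with matplotlib 3.10.9. The interval code was tested on simulated data, where 0 of 2000 comparisons with a plain loop differed.

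All 10 genes were named, with the 2 genes most like each gene with H3K27me3 and, from other lists, the genes behind counts of 5 or fewer. Genes and lists were chosen with earlier results of these data known. Expression data were not analysed here. The sequences of some peaks are not reported here. Alternatives were windows of 1000 and 5000 bp, a score of at least 100, an overlap of at least 100 bp, lists of equal length, the 5' end of the gene span, overlapping peaks and GENCODE M21.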

Additional observations from a re-analysis of the deposited data

How the results depend on the processing

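Of 111 counts of genes under the alternatives, 97 stayed within 1.5 times the reported count and 14 did not. A count could stay the same while its genes changed. The 3 genes with H3K27me3 in Myc-ESCs only were *Sfrp1*, *Sfrp5* and *Wif1* with windows of 5000 bp, where *Frzb* was marked in both cultures. With a score of at least 100 they were *Dkk1*, *Sfrp5* and *Frzb*. A LIF-ESC-only H3K4me3 count of 1 (*Dkk4*) arose with windows of 5000 bp and with the 5' end of the gene span. With windows of 1000 bp, H3K27me3 lay at 0 start sites in LIF-ESCs and 2 in Myc-ESCs (*Dkk1*, *Sfrp5*). With a score of at least 100 it lay at 0 and 3 (*Dkk1*, *Sfrp5*, *Frzb*), and over 0 gene bodies in LIF-ESCs and 1 in Myc-ESCs (*Frzb*), while Suz12 lay in Myc-ESCs only at 1 (*Sfrp1*). With lists of equal length, H3K27me3 lay at 2 start sites in Myc-ESCs, in Myc-ESCs only at 1 (*Frzb*), in LIF-ESCs only at 1 (*Sfrp2*), and over 1 Myc-ESC body (*Frzb*). When peaks of both cultures had to overlap, 0 genes had H3K27me3 in common, and 5 had Suz12 in common, without *Wif1*. These alternatives drop peaks or shift the window by construction. The shares of all genes under them are not given here, so the counts have no background.

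Of 180 differences in bases covered, 127 were unchanged, 50 changed without a change of sign and 3 took the opposite sign, all with windows of 1000 bp: H3K4me3 at *Sfrp4* (43 bp) and *Sfrp5* (86 bp) and Suz12 at *Frzb* (-19 bp). The unchanged ones include genes without a peak, whose difference stayed at 0. Those without a change of sign include differences that fell to 0. For H3K27me3, *Sfrp1* fell from 382 to 0 bp with windows of 1000 bp, a score of at least 100 or lists of equal length. *Sfrp5* fell from 336 to 0 bp with lists of equal length, and *Frzb* from 1512 to 0 bp with windows of 1000 bp. No paired analysis was possible because the data are 1 list per culture and no result comes from a test. Unknown depth limits every comparison between cultures.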

Other observations

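The genes whose coverage was most like that of each antagonist gene with H3K27me3 were found by the distance in percent of the window covered over the 6 lists, in percentage points. *Zfp800* (9.10) and *Ret* (9.17), a receptor tyrosine kinase gene, were nearest to *Dkk1*, and *Inhbb* (9.55), which encodes a subunit of activin B, and *Pde8a* (10.3) to *Sfrp1*. Like *Sfrp1*, *Inhbb* had H3K4me3 over 99.4% (LIF) and 78.1% (Myc) of its window, and Suz12 over 0 and 74.6%. *Arhgap31* (7.98) and *Mir375* (8.30) were nearest to *Sfrp5*, and *Crhr1* (8.95) and *Comp* (12.4) to *Frzb*. *Crhr1*, a hormone receptor gene, had H3K27me3 over 2.82% (LIF) and 28.9% (Myc) of its window. The genes nearest to *Sfrp2*, *4921524J17Rik* (3.13) and *Myef2* (4.65), had broad H3K4me3 and no Suz12, and no H3K27me3 in Myc-ESCs.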
